A study of Mus musculus with 6 samples.

Results

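Intestinal gluconeogenesis was described here through 5 genes, Pcx, Pck1, Fbp1, G6pc and Slc37a4, taken by symbol from 51912 genes listed in each library. All 5 had a single matching Ensembl identifier, and all 5 were among the 13644 genes with enough counts to be tested. The RNA came from small intestine epithelium sorted from C57BL/6 mice under 3 kinds of rearing, with 2 libraries of each. The specific pathogen free (SPF) mice, replicates 3 and 4, carried a microbiota without particular pathogens. The germ-free (GF) mice, replicates 1 and 3, had no microbiota, and the antigen-free (AF) mice, replicates 2 and 3, had neither a microbiota nor foreign antigens from food. By these labels GF and SPF differ in the microbiota, AF and GF in food antigens in its absence, and AF and SPF in both. Food antigens and any other difference between the diets cannot be told apart here. The mice's age, the makeup of the diets and the number of mice behind a library were not stated in the labels. If the libraries of a group did not come from separate mice, p-values cover technical spread alone.

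Gluconeogenesis makes glucose from lactate, amino acids, glycerol and propionate. It runs through most of the enzymes of glycolysis in reverse and goes around the irreversible steps with enzymes of its own: pyruvate carboxylase (Pcx) and phosphoenolpyruvate carboxykinase (Pck1) from pyruvate to phosphoenolpyruvate, fructose-1,6-bisphosphatase (Fbp1), and glucose-6-phosphatase (G6pc), which works in the endoplasmic reticulum on substrate brought there by the glucose-6-phosphate transporter (Slc37a4). Liver and kidney are the main sites, and the small intestine expresses the genes too, where they have been studied in connection with fasting, dietary protein and fibre, and glucose sensing in the portal vein.

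Libraries totalled 16109488 to 19417054 expected counts, and a floor of 3 counts corresponded to 0.109 to 0.236 CPM (counts relative to library totals scaled by the trimmed mean of M-values, TMM). Genes of the mitochondrial genome held 18.1% and 27.2% of counts in SPF libraries, 17.9% and 32.1% in GF and 35.3% and 28.7% in AF. The 20 most abundant genes of a library held 29.3 to 54.9% of its counts. TMM factors ran from 0.791 to 1.41. The enterocyte marker Vil1, which encodes villin of the brush border, was at 1846 to 3646 CPM in every library. SPF replicate 4 stood apart from the rest: its summed level of 27 brush border markers was 88980 CPM against 33620 to 50160 in the other 5, its 11 crypt markers summed to 110.4 CPM against 228.5 to 551.6, and the stem cell marker Lgr5 was at 0.0686 CPM against 1.63 to 5.69. GF replicate 3 held the most lymphocyte marker RNA, 354.7 CPM over 13 genes against 15.3 to 209.7 in the others. Liver cells, which express these genes strongly, left little trace: the 8 hepatocyte markers summed to 1.65 to 16.9 CPM, and Alb, albumin, was at 0 to 1.01 CPM. GF replicate 3 also held both Y-linked RNA and Xist, at 14.8 CPM, and without it the log2 fold change of GF versus SPF was 1.67 for Pck1, -2.11 for G6pc and -1.53 for Fbp1. Y-linked genes had no counts in either SPF library and were present in the 4 others, so sex and rearing cannot be told apart in comparisons with SPF. Each group's tables also carry a date-like mark of their own, so a batch by date cannot be told apart from rearing in any comparison.

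In GF epithelium Pck1 stood at its highest and G6pc and Fbp1 at their lowest, and in AF epithelium all 3 were inside or near the SPF range. Pck1 averaged 427.1 ± 67 CPM (SD, n = 2) in GF libraries, 119.4 ± 67.1 in SPF and 91.8 ± 29.7 in AF. Fbp1 averaged 11.9 ± 0.133 CPM in GF, 34.5 ± 23.6 in SPF and 41.8 ± 1.57 in AF. None of the 5 genes passed an adjusted p below 0.05 in any comparison by edgeR's quasi-likelihood F test with Benjamini-Hochberg adjustment over all genes tested, so these are measured levels and not called changes. That test called 0.0147% of all genes in GF versus SPF, 0.0147% in AF versus GF and 0.044% in AF versus SPF.

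**Figure D1:**
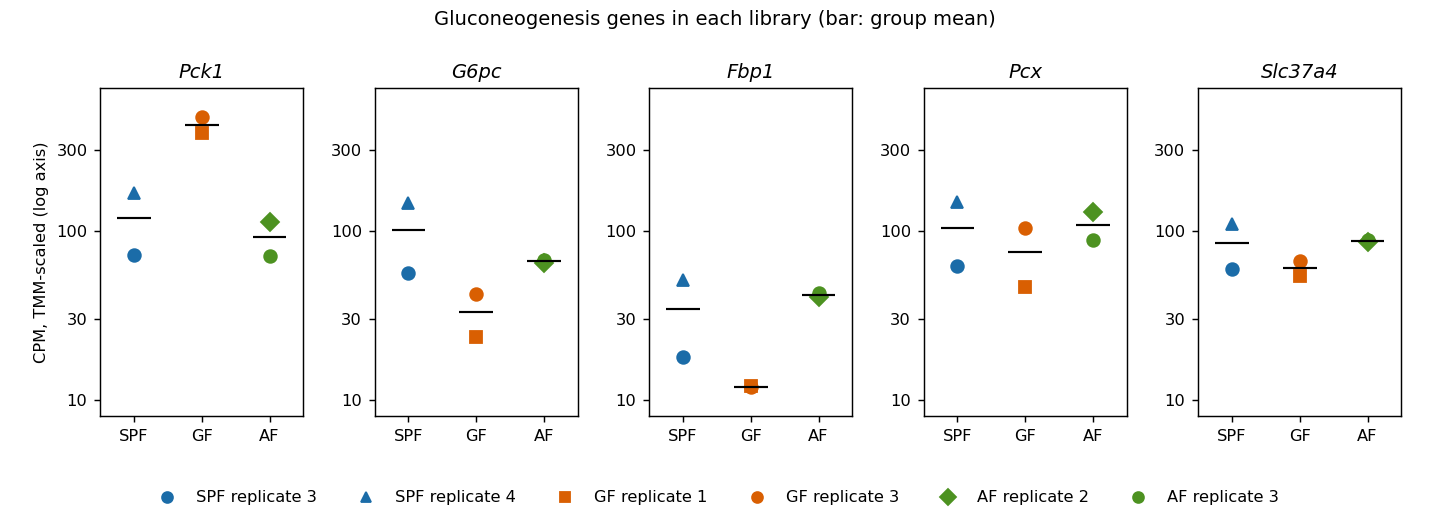
Level of each of the 5 genes in every library, in CPM on TMM-scaled totals (log axis), by rearing group. Points are libraries and bars are means of 2 libraries. Pck1 lies between 379.8 and 474.5 CPM in GF libraries and at 166.9 or less in the other 4, whereas Fbp1 is at 11.99 or less in GF libraries and at 17.8 or more in the others.

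Pcx (ENSMUSG00000024892, protein-coding, chromosome 19, 4510472 to 4621752, plus strand, GRCm38) makes oxaloacetate from pyruvate in mitochondria. SPF replicates 3 and 4 held 61.7 and 147.7 CPM of Pcx, GF replicates 1 and 3 held 46.3 and 104.8, and AF replicates 2 and 3 held 129.2 and 88.4. The spread inside a group, up to 2.39-fold in SPF, was wider than any difference of group means, and the groups overlapped in all 3 comparisons. The log2 fold change was -0.47 in GF versus SPF (95% interval -1.81 to 0.87), 0.53 in AF versus GF (-0.81 to 1.87) and 0.06 in AF versus SPF (-1.28 to 1.39). Leaving out GF replicate 1 gave 0.06 for Pcx in AF versus GF, and leaving out GF replicate 3 gave 1.23. Each of these 95% intervals reaches past a 2-fold difference in at least 1 direction. Pcx overlaps Lrfn4 on the opposite strand, at 0.755 to 4.78 CPM, and as the labels do not say whether counting used strand, reads from the shared stretch cannot be told apart.

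Pck1 (ENSMUSG00000027513, protein-coding, chromosome 2, 173153048 to 173159273, plus strand, GRCm38) encodes the cytosolic carboxykinase that turns oxaloacetate into phosphoenolpyruvate, and is known as a gene controlled mainly through its promoter. Because the 3 genes whose levels set GF apart are known from liver to respond to hormones through their promoters, the 250 bases upstream of their RefSeq starts (GRCm38.p6) are shown here 5′ to 3′ on the gene's own strand, with matches to 7 searched motifs in capitals. The windows are chr2:173152823-173153072 on the plus strand for Pck1, chr11:101367466-101367715 on the plus strand for G6pc and chr13:62888283-62888532 on the minus strand for Fbp1.
Pck1: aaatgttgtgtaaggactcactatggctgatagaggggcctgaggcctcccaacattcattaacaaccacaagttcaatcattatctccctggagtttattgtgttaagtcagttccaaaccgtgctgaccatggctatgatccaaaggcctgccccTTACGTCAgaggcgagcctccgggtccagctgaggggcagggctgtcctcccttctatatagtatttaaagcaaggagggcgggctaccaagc
G6pc: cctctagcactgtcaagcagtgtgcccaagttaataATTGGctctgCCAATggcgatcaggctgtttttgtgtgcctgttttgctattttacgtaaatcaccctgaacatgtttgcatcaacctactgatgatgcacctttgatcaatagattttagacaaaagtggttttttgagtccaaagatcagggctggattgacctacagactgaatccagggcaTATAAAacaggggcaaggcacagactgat
Fbp1: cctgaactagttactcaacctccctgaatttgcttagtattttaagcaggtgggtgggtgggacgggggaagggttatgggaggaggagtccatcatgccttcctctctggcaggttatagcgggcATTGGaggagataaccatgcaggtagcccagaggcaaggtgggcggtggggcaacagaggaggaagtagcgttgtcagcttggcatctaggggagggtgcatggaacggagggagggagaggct
The motifs were the cyclic AMP response elements TGACGTCA and TTACGTCA, the forkhead motif TGTTTAC, the E-box CACGTG, the D-box TTATGTAA, CCAAT and TATAAA, each on both strands, in windows of 250 bases before and 50 after the start. TTACGTCA began 93 bases before the Pck1 start, matched no window of the other 4 genes, and was in 0.499% of 32851 promoter windows of the same length. G6pc held TATAAA 29 bases before its start, a motif in 13.6% of windows, and CCAAT at 204 bases and, as ATTGG of the opposite strand, at 214 bases. Fbp1 held only CCAAT, on the opposite strand 124 bases before its start. CCAAT is in 37.4% of windows. The TGACGTCA, TGTTTAC and TTATGTAA motifs, in 1.79%, 3.65% and 0.938% of all windows, matched none of the 5 genes in these windows, and CACGTG, in 7.15%, matched Pcx alone among them. A match is a run of letters and says nothing about binding in these cells.

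Pck1 was at 72.0 and 166.9 CPM in SPF replicates 3 and 4, at 379.8 and 474.5 in GF replicates 1 and 3, and at 112.8 and 70.8 in AF replicates 2 and 3. Both GF libraries were above all 4 others, and SPF and AF overlapped in CPM. In TPM, the unit RSEM scales by transcript length, Pck1 was at 43.5 and 63.1 in SPF, 245.8 and 171.8 in GF and 36.0 and 29.1 in AF. The GF libraries were the highest on this scale too, but here both AF libraries were below both SPF libraries. On this scale 9039 of 12120 genes were lower in AF than in SPF by limma on log2(TPM + 1). By TPM it was the 426th and 368th most abundant gene in GF replicates 1 and 3, and between the 1101st and the 2096th elsewhere. The GF mean in CPM was 3.58-fold that of SPF (log2 fold change 1.84, standard error 0.48, 95% interval 0.67 to 3.01), with an unadjusted p of 0.00837 and an adjusted p of 0.738 by edgeR's quasi-likelihood F test. In AF versus GF it was lower by 2.22 on the log2 scale (-2.22, standard error 0.49, 95% interval -3.40 to -1.03), with an unadjusted p of 0.00369, the 34th smallest of 13644, and an adjusted p of 1. DESeq2's Wald test on the same counts called both differences, with adjusted p of 0.0383 for GF versus SPF, where it called 0.586% of genes, and 0.00377 for AF versus GF, where it called 0.374%. edgeR's likelihood ratio test called the second, with an adjusted p of 0.0172 where 0.388% of genes were called, and not the first, at 0.0669 where 0.711% were. AF versus SPF gave -0.38 (95% interval -1.52 to 0.76, adjusted p 0.806). Without SPF replicate 4, GF versus SPF for Pck1 was 2.56 and AF versus SPF was 0.34, the opposite sign.

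Fbp1 (ENSMUSG00000069805, protein-coding, chromosome 13, 62864753 to 62888282, minus strand, GRCm38) removes a phosphate from fructose-1,6-bisphosphate, the step opposite to phosphofructokinase. It was at 17.8 and 51.2 CPM in SPF replicates 3 and 4, at 11.99 and 11.81 in GF replicates 1 and 3, and at 40.7 and 42.9 in AF replicates 2 and 3. The GF libraries were below all 4 others, and the AF pair lay inside the SPF range. SPF exceeded GF 2.90-fold (log2 fold change of GF versus SPF -1.53, standard error 0.47, 95% interval -2.68 to -0.38, edgeR unadjusted p 0.0172, adjusted p 0.738). AF exceeded GF 3.51-fold (1.81, standard error 0.48, 95% interval 0.65 to 2.97, edgeR unadjusted p 0.00864, adjusted p 1). The difference from SPF rested largely on SPF replicate 4: without that library it was -0.59 on the log2 scale, and without SPF replicate 3 it was -2.11, with an edgeR adjusted p of 0.0263 in a fit that called 2.58% of genes. AF versus GF for Fbp1 stayed between 1.75 and 1.85 whichever library was left out. AF versus SPF gave 0.28 (95% interval -0.84 to 1.40, adjusted p 0.863), and -0.30 without SPF replicate 3. In TPM Fbp1 was at 19.05 and 33.86 in SPF, 14.09 and 7.99 in GF and 22.5 and 31.55 in AF. On this scale AF exceeded GF 2.45-fold, and limma on log2(TPM + 1) gave 1.25 for that comparison. With scaling on the brush border markers in place of TMM, Fbp1 gave -0.79 in GF versus SPF, 1.83 in AF versus GF and 1.04 in AF versus SPF.

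G6pc (ENSMUSG00000078650, protein-coding, chromosome 11, 101367561 to 101377903, plus strand, GRCm38) encodes the catalytic subunit of glucose-6-phosphatase, which releases free glucose. SPF replicates 3 and 4 held 56.1 and 147.3 CPM of G6pc, GF replicates 1 and 3 held 23.6 and 42.5, and AF replicates 2 and 3 held 64.9 and 67.6. GF libraries were again the lowest, with AF inside the SPF range. SPF was 3.08-fold above GF (log2 fold change of GF versus SPF -1.62, standard error 0.51, 95% interval -2.86 to -0.39, edgeR unadjusted p 0.0184, adjusted p 0.738). Without SPF replicate 4 that value was -0.78, and without SPF replicate 3 it was -2.17. AF was 2.01-fold above GF (1.01, 95% interval -0.22 to 2.23, edgeR unadjusted p 0.0908, adjusted p 1), with 0.64 when GF replicate 1 was left out and 1.49 when GF replicate 3 was. In TPM the AF libraries, at 20.9 and 28.9, were both below the SPF libraries, at 34.9 and 56.6, whereas in TMM-scaled CPM they lay between them, so the order of AF and SPF for G6pc differs between the scales. AF versus SPF gave -0.62 for G6pc (95% interval -1.83 to 0.59, adjusted p 0.683), and 0.23 without SPF replicate 4.

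Slc37a4 (ENSMUSG00000032114, protein-coding, chromosome 9, 44396852 to 44402968, plus strand, GRCm38) carries glucose-6-phosphate into the endoplasmic reticulum and is needed for glucose-6-phosphatase to act. It was at 59.4 and 109.9 CPM in SPF replicates 3 and 4, 54.3 and 66.5 in GF replicates 1 and 3, and 85.5 and 88.0 in AF replicates 2 and 3. The log2 fold change was -0.49 in GF versus SPF (95% interval -1.28 to 0.31), 0.52 in AF versus GF (-0.28 to 1.32) and 0.04 in AF versus SPF (-0.76 to 0.83). AF lay above GF in CPM and overlapped it in TPM, at 34.3 and 46.1 against 47.6 and 30.3. Without SPF replicate 4, GF versus SPF was 0.02 for Slc37a4 and 0.28 for Pcx.

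Over the 5 genes, GF and SPF libraries were apart in CPM for 3, where 33.8% of all genes tested were apart. Pck1 was on the higher side, with 16.8% of all genes, and G6pc and Fbp1 on the lower, with 17.1%. AF and GF were apart for 4 of 5, all but Pcx, where 33.6% of all genes were. In this comparison 3 members were on the higher side, with 15.8% of all genes, and Pck1 on the lower, with 17.8%. AF and SPF were apart in CPM for none of the 5, where 44.6% of all genes were, whereas in TPM Pck1 and G6pc were lower in both AF libraries. In TPM most genes were lower in AF than in SPF, 9039 of 12120 by limma on log2(TPM + 1), with a median of -0.31. The share of all genes apart in TPM was not computed. At an unadjusted p below 0.05 by edgeR the members numbered 3 of 5 in GF versus SPF, 2 of 5 (Pck1 and Fbp1) in AF versus GF and 0 of 5 in AF versus SPF, against 6.71%, 3.6% and 11.3% of all genes. An F test over all 3 groups together called none of the 5 after adjustment, where it called 0.0293% of all genes, and gave 3 of 5 an unadjusted p below 0.05, where 7.33% of all genes had one. With no low-count filter edgeR called Pck1, G6pc and Fbp1 in GF versus SPF, where it called 2.13% of genes, and Pck1 and Fbp1 in AF versus GF, where it called 1.16%. Members were set beside all genes here as a description. The first 2 comparisons share the GF libraries, so their opposite signs for a gene are not independent of each other.

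**Figure D2:**
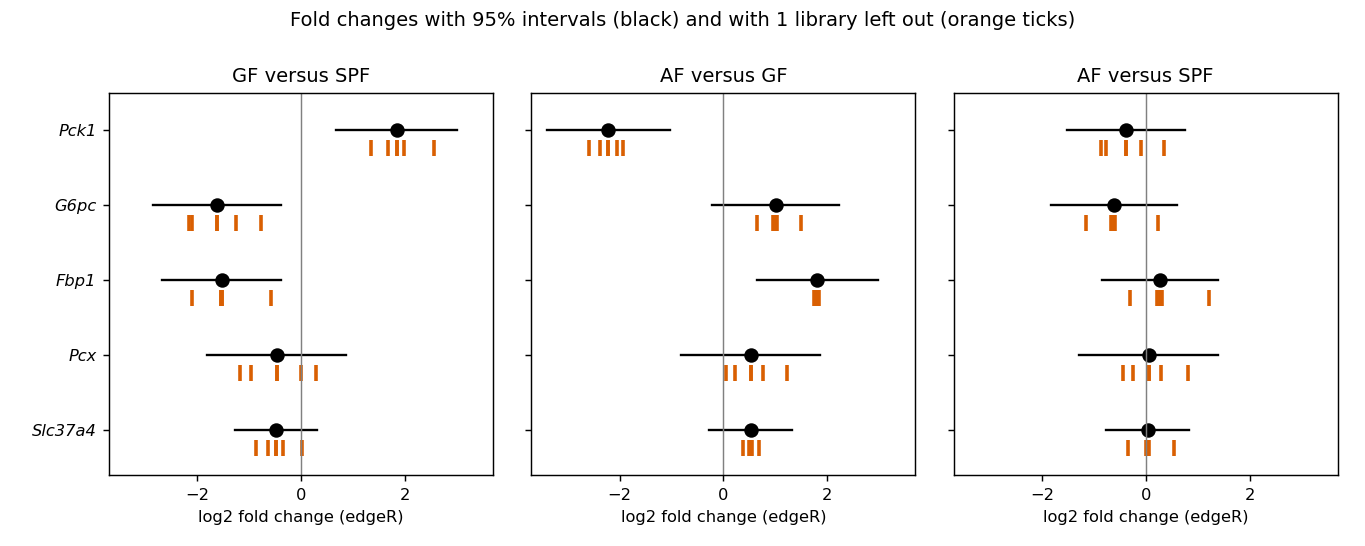
Log2 fold change of each gene in the 3 comparisons from edgeR, with its 95% interval (black) and the values when 1 of the 6 libraries is left out (orange ticks). Pck1 lies to the right of 0 in GF versus SPF and to the left in AF versus GF under each library left out, and in AF versus SPF all 5 intervals span 0.

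Ratios of genes within a library do not depend on how libraries are scaled against each other. Among the summed TPM of the 5 genes, Pck1 made up 26.5% and 26.7% in SPF replicates 3 and 4, 72.1% and 69.2% in GF replicates 1 and 3, and 26.2% and 18.6% in AF replicates 2 and 3. The GF pair thus stood far above the other 4 libraries, which were close to each other. G6pc made up 4.65% and 6.42% in GF libraries and 15.2 to 23.9% in the rest. Fbp1 was at 4.13% and 3.22% in GF libraries and at 11.6 to 20.1% in the rest. The shares of a library add up to a whole, so a larger Pck1 share by itself makes the others smaller. Pcx was likewise at 5.15% and 8.92% in GF libraries and at 13.2 to 17.1% in the rest. Slc37a4 was at 14% and 12.2% in GF libraries and at 21.5 to 29.4% in the rest. For both genes GF and SPF overlapped in CPM and in TPM. In TPM, Pck1 exceeded G6pc 15.5-fold and 10.8-fold in GF replicates 1 and 3, and 1.01-fold to 1.72-fold in the other 4 libraries. Pck1 exceeded Fbp1 17.4-fold and 21.5-fold in GF libraries and stood at 0.924 to 2.28 times its level in the others. With 2 libraries against 2, an exact two-sided permutation test cannot give a p below 0.333, and none was run on these ratios. The summed TPM of the 5 genes was 340.9 and 248.1 in GF libraries, 164.4 and 236.4 in SPF and 137.1 and 156.9 in AF.

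**Figure D3:**
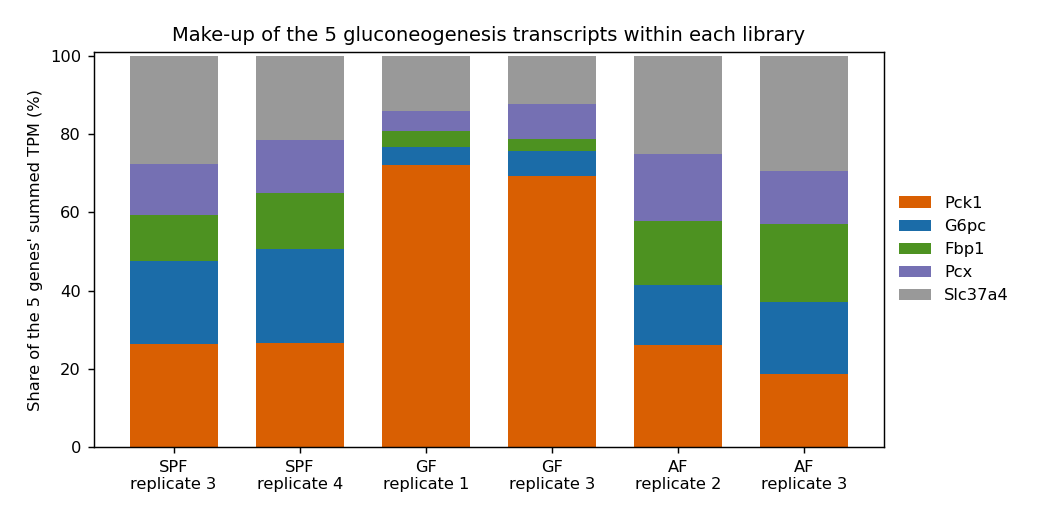
Share of each gene in the summed TPM of the 5 genes (%), 1 bar per library. Pck1 takes 69.2 to 72.1% in the GF libraries and 18.6 to 26.7% in the other 4.

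All members but Pck1 were at their highest in SPF replicate 4, the library richest in brush border markers and poorest in crypt markers, and the part of cell makeup in their levels was not tested. In bulk RNA of sorted cells, fewer cells of a type and less RNA per cell cannot be told apart. Per 1000 TPM of the 27 brush border markers, Pck1 was at 0.943 and 1.08 TPM in SPF libraries, 6.57 and 5.15 in GF and 1.41 and 1.14 in AF, so its GF levels stood apart on this scale too. On the same scale G6pc was at 0.757 and 0.966 TPM in SPF, 0.424 and 0.478 in GF and 0.819 and 1.13 in AF. Fbp1 was at 0.413 and 0.578 TPM in SPF, 0.377 and 0.240 in GF and 0.882 and 1.24 in AF, with GF lowest and AF highest. AF was also highest for Pcx, at 0.469 and 0.545 TPM in SPF, 0.469 and 0.663 in GF and 0.919 and 0.834 in AF. The same held for Slc37a4, at 0.982 and 0.869 in SPF, 1.27 and 0.909 in GF and 1.34 and 1.81 in AF. The marker sum itself was lowest in AF, at 46120 and 58590 TPM in SPF, 37400 and 33350 in GF and 25500 and 25490 in AF. Marker lists of other cell types leaned to 1 side as well, though not all had the groups apart. GF was apart above SPF in CPM for 0 of 11 Paneth, 1 of 11 crypt, 8 of 8 tuft and 9 of 12 enteroendocrine markers. Of all genes 16.8% were apart on that side. GF was apart below SPF for 9 of 13 markers of the proximal small intestine and 8 of 27 brush border markers. On that lower side 17.1% of all genes were apart. In these 2 lists 0 and 1 markers were apart above SPF. In GF versus SPF the median log2 fold change was -0.61 for brush border markers (25 of 27 lower), -0.80 for markers of the proximal small intestine (12 of 13 lower), 0.81 for crypt markers (10 of 11 higher), 2.14 for Paneth cells (11 of 11 higher), 1.74 for enteroendocrine cells (12 of 12 higher) and 1.68 for tuft cells (8 of 8 higher). In AF versus GF it was -1.04 for Paneth cells (11 of 11 lower), 0.75 for tuft cells (8 of 8 higher) and -3.09 for lymphocytes (12 of 12 lower). In AF versus SPF it was -0.54 for brush border markers (24 of 27 lower) and -0.54 for the proximal small intestine (10 of 13 lower). Tuft markers stood at 2.39 (8 of 8 higher) and enteroendocrine markers at 1.69 (11 of 12 higher) in that comparison. Summed over the lists, Paneth markers were at 54.8 and 1638 CPM in SPF libraries, 1087 and 6601 in GF and 1205 and 2506 in AF, and enteroendocrine markers at 380.6 and 1545, 1977 and 4536, and 2945 and 3930. Tuft markers summed to 15.9 and 69.7 CPM in SPF, 105.3 and 144.5 in GF and 211.3 and 221.1 in AF, with 2 of 9 at 0 in SPF replicate 4. Lymphocyte markers summed to 77.6 and 209.7 CPM in SPF, 38.1 and 354.7 in GF replicates 1 and 3, and 15.3 and 21.3 in AF. The GF level of this list thus rested largely on GF replicate 3. The part of these cell types in the members' levels was not tested.

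Each bypass enzyme has relatives, which were examined as a list of isoforms and homologs. Fbp2, the fructose-1,6-bisphosphatase best known from muscle and named here after its values were seen, was more abundant than Fbp1 per length in every library, at 133.2 to 259.8 TPM against 7.99 to 33.9. The ratio of Fbp1 to Fbp2 TPM was 0.0542 and 0.0593 in GF libraries and 0.0991 to 0.214 in the others. In CPM, Fbp2 lay between 162.6 and 217.8 in all 6 libraries, with a log2 fold change of 0.05 in GF versus SPF (standard error 0.26). The mitochondrial carboxykinase gene Pck2, likewise chosen after its values were seen, was at 0.860 to 5.41 TPM, so that Pck1 exceeded it 9.81-fold to 89.9-fold. G6pc3, the widely expressed glucose-6-phosphatase, was at 5.93 to 17.8 TPM with log2 fold changes of 0.39 in GF versus SPF and 0.32 in AF versus SPF, the first between 0.08 and 0.78 with 1 library left out. G6pc exceeded G6pc3 2.72-fold to 8.69-fold in SPF and AF libraries and stood at 0.892 and 2.01 times its level in GF replicates 1 and 3. Of 6 relatives tested, 3 were higher and 3 lower in GF than in SPF, and the list's median (log2 fold change) was -0.01 beside 0.02 over all genes. With scaling on brush border markers all 6 were higher, with a median of 0.54 beside 0.52 over all genes, of which 12230 of 13644 were higher.

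The enzymes that gluconeogenesis shares with glycolysis were lower in GF epithelium for 9 of 11 tested and higher for 2, the median being -0.52 on the log2 scale, and 7 of the 11 had both GF libraries below both SPF libraries, where 17.1% of all genes did. In AF versus GF all 11 were higher, with a median of 0.72 beside -0.02 over all genes, and 9 were apart, where 15.8% of all genes were apart on that side. None passed the adjusted threshold in edgeR in any comparison. Gapdh, glyceraldehyde-3-phosphate dehydrogenase, was at 972.4 and 1737 CPM in SPF, 637.2 and 739.3 in GF and 1422 and 1410 in AF, with log2 fold changes of -0.98 in GF versus SPF and 1.04 in AF versus GF (edgeR unadjusted p 0.0557 and 0.0453). Eno1, enolase 1, gave -1.02 in GF versus SPF (edgeR unadjusted p 0.0337), and Aldoa gave 0.62 in AF versus GF and 0.63 in AF versus SPF. In TPM the groups overlapped for Aldoa, at 241.8 and 121.6 in SPF, 257.7 and 123.2 in GF and 173.7 and 239.1 in AF. Scaling the libraries on the brush border markers in place of TMM, a check of the lists added after the values were seen, turned GF versus SPF to 7 higher and 4 lower with a median of 0.07, while the median of all genes stood at 0.52. In AF versus GF the list stayed on the higher side under each scaling tried, with 8 of 10 to 11 of 11 genes higher, and medians of 0.26 to 0.72. Without SPF replicate 4, 9 of 11 were again lower in GF than in SPF, with Eno1 at -0.61 and Gapdh at -0.51.

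Enzymes that serve glycolysis alone were lower in GF than in SPF for 6 of 9 (median -0.32) and higher in AF than in GF for 7 of 9 (median 0.60). With scaling on brush border markers 5 were higher and 4 lower in GF than in SPF, where 12230 of all 13644 genes were higher. Pklr, the pyruvate kinase of liver and gut, turns phosphoenolpyruvate into pyruvate, opposite to the joint steps of Pcx and Pck1. It was at 237.5 and 415.4 CPM in SPF libraries, 129.4 and 145.5 in GF and 208.9 and 237.4 in AF. Its log2 fold change in GF versus SPF was -1.25 (standard error 0.34, edgeR unadjusted p 0.0103, adjusted p 0.738), and -0.80 without SPF replicate 4. Pkm, the other pyruvate kinase, gave 0.95 in AF versus GF. Pfkl, the liver phosphofructokinase, was at 35.5 to 36.2 CPM in SPF, 33.9 to 34.3 in GF and 55.1 to 61.5 in AF, with 0.78 in AF versus GF and 0.70 in AF versus SPF. In TPM its groups overlapped, at 15.2 and 10.7 in SPF, 15.4 and 8.11 in GF and 13.7 and 17.6 in AF. Pfkm, the muscle form, was low throughout, at 4.12 to 4.49 CPM in SPF, 8.21 to 8.57 in GF and 12.1 to 13.4 in AF, with 1.57 in AF versus SPF (standard error 0.26, edgeR unadjusted p 0.000849, adjusted p 0.285).

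Among 10 enzymes that set the direction of flow, 5 were higher and 5 lower in GF than in SPF. With scaling on brush border markers 7 were higher and 3 lower, where 12230 of all 13644 genes were higher. Pfkfb3, which makes the fructose-2,6-bisphosphate that activates phosphofructokinase and inhibits Fbp1, was at 62.5 and 117.9 CPM in SPF libraries, 14.6 and 31.0 in GF and 25.2 and 24.6 in AF. Both microbiota-free groups lay below SPF, with -1.99 in GF versus SPF (standard error 0.45, edgeR unadjusted p 0.00444, adjusted p 0.738) and -1.86 in AF versus SPF (adjusted p 0.380). Pdk4, which switches off pyruvate dehydrogenase, gave 0.74 in GF versus SPF and -0.74 in AF versus GF, the signs of Pck1, with edgeR unadjusted p of 0.085 and 0.0874. With 1 library left out these ran from 0.38 (without SPF replicate 3) to 1.22 (without SPF replicate 4) and from -1.15 (without AF replicate 2) to -0.44 (without AF replicate 3). Pfkfb1 gave 1.00 in AF versus GF, and 0.61 without AF replicate 2, and Pfkfb2 -0.35 in AF versus SPF.

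Of 26 genes for entry of lactate, glycerol and amino acids and for shuttles between mitochondria and cytosol, 21 were lower and 5 higher in GF than in SPF, with a median of -0.47, and 14 were higher and 12 lower in AF than in GF. With scaling on brush border markers 18 were higher and 8 lower in GF than in SPF, where 12230 of all 13644 genes were higher. Without SPF replicate 4, 12 were higher and 15 lower. In AF versus GF, 7 were higher and 19 lower on library totals, and 3 higher and 22 lower by limma on log2(TPM + 1). Over all genes 11426 of 13644 were lower on library totals and 10526 of 12120 by limma. Glud1, glutamate dehydrogenase, went with the minority in GF versus SPF. It was at 122.5 and 122.6 CPM in SPF libraries, 293.3 and 195.1 in GF and 138.3 and 147.8 in AF, so that in CPM GF stood apart from both groups. In TPM, unlike for Pck1, the GF libraries, at 176.4 and 61.8, overlapped the SPF libraries, at 67.7 and 41.3. The log2 fold change of Glud1 was 0.99 in GF versus SPF and -0.77 in AF versus GF (edgeR unadjusted p 0.0119 and 0.0326, adjusted p 0.738 and 1), the second being -0.45 without GF replicate 1. Gpd2, the mitochondrial glycerol-3-phosphate dehydrogenase, gave -1.31 in GF versus SPF, and -0.68 without SPF replicate 4. Aqp3, a channel for glycerol and water, gave -1.93 and Slc25a13, an aspartate and glutamate carrier, -0.66 in AF versus SPF. Without SPF replicate 4, Aqp3 was -0.92. The 19 genes of propionate sensing and its conversion to succinate had 11 higher and 8 lower in GF than in SPF (median 0.14) and 9 higher and 10 lower in AF than in GF. These splits moved with the scaling, as did those of all genes. On brush border markers all 19 were higher in GF than in SPF, where 12230 of all 13644 genes were. On library totals 2 were higher and 17 lower in AF than in GF, where 11426 of all 13644 genes were lower. Ffar2, a receptor for short-chain fatty acids, gave 1.41 in GF versus SPF (standard error 0.66), between 0.61 without GF replicate 3 and 2.38 without SPF replicate 3. Ffar3, a receptor of the same family, was at 1.65 and 0 CPM in SPF libraries, 2.15 and 1.56 in GF and 5.42 and 4.16 in AF. Sdhc gave -0.59 in GF versus SPF, Acss1 -0.46 and Mut -0.49 in AF versus GF, and Sucla2 -0.52 in AF versus SPF. Without GF replicate 1, Mut was 0.02 and Acss1 -0.30, and without SPF replicate 4, Sucla2 was -0.10.

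The list of transcriptional and hormonal regulators had 9 genes higher and 18 lower in GF than in SPF, with a median of -0.15, and 18 higher and 9 lower in AF than in GF. Without SPF replicate 4, 14 were higher and 13 lower in GF than in SPF, with a median of 0.03. With scaling on brush border markers 25 were higher and 2 lower in GF than in SPF, where 12230 of all 13644 genes were higher. With library totals 9 were higher and 18 lower in AF than in GF, where 11426 of all 13644 genes were lower. Klf15, a transcription factor known to raise amino acid breakdown and gluconeogenesis in liver during fasting, was at 0.779 and 1.10 CPM in SPF libraries, 4.74 and 3.46 in GF and 1.10 and 1.604 in AF. Both GF libraries were above all others, as for Pck1, at levels of only a few CPM. Klf15 gave 2.13 in GF versus SPF (standard error 0.51, edgeR unadjusted p 0.00542, adjusted p 0.738) and -1.59 in AF versus GF (unadjusted p 0.0179, adjusted p 1). Sik1, a kinase that restrains cyclic AMP signalling, gave 0.66 in AF versus GF. Irs2, an adaptor of the insulin receptor, was at 21.8 and 21.0 CPM in SPF, 25.04 and 35.96 in GF and 46.5 and 46.2 in AF, with 1.12 in AF versus SPF (edgeR unadjusted p 0.00249, adjusted p 0.324), while Cebpb gave -0.81 in that comparison and Ppargc1b -0.54 in GF versus SPF. Ppargc1a, a coactivator of gluconeogenic genes in liver that was chosen after its values were seen, was at 22.2 and 43.9 CPM in SPF libraries, with GF and AF libraries between these values.

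**Figure D4:**
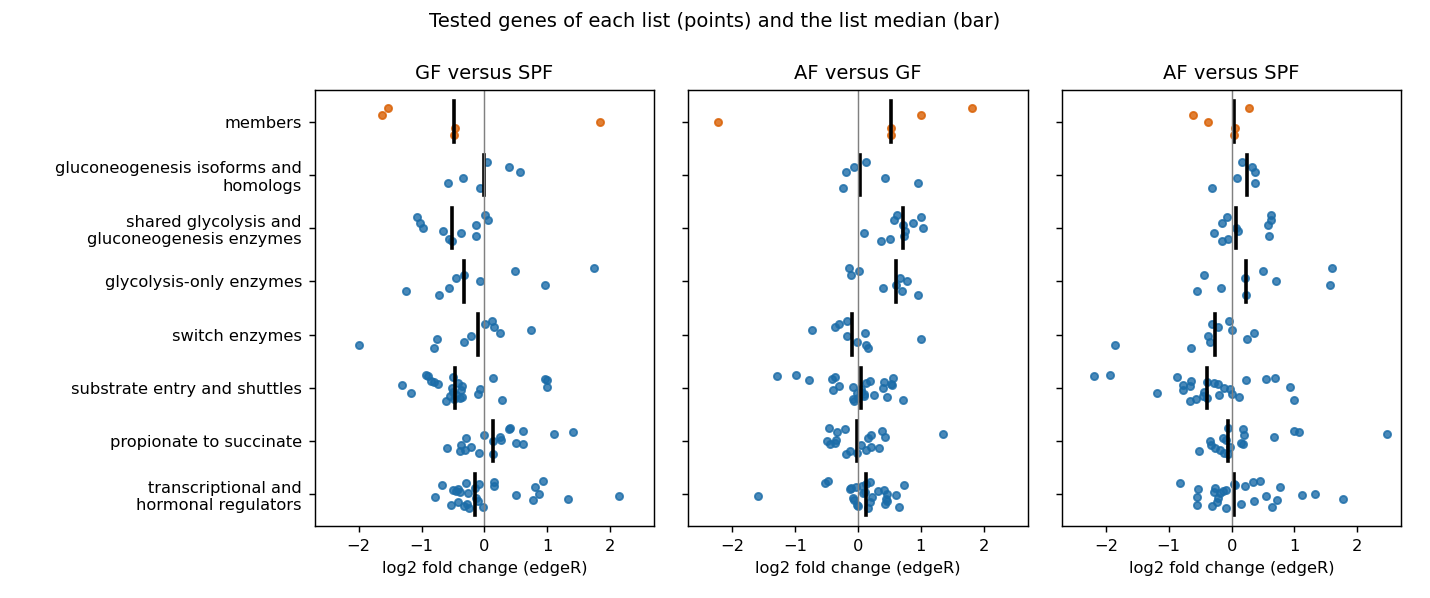
Log2 fold change of every tested gene (points) of the 5 members and of 7 lists of related genes in the 3 comparisons, with list medians (bars). In AF versus GF all 11 shared enzymes lie right of 0 with a median of 0.72, and the member farthest to the left, at -2.22, is Pck1.

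The genes whose pattern over the 6 libraries was most like each member were ranked by Pearson's r of log2 CPM among 7031 genes, as a description, since the libraries share their scaling and many genes follow the same few contrasts. For Pck1 they were Maco1 (r = 0.979), Angptl4 (0.978) and Neurl3 (0.972). Angptl4, a secreted inhibitor of lipoprotein lipase, was at 30.1 and 52.1 CPM in SPF libraries, 120.3 and 206.5 in GF and 49.7 and 32.9 in AF, whereas Maco1 moved only between 15.0 and 18.1 CPM. For G6pc they included Fam160a1 (0.995) and Dusp5 (0.995). For Fbp1 they were Ppp2r2a (0.997), Khk (0.991) and Fth1 (0.987). Khk, the ketohexokinase that starts fructose breakdown, was at 305.9 and 574 CPM in SPF libraries, 233.2 and 271 in GF and 497.9 and 518.3 in AF. Zmiz2, Dvl1 and Stxbp2 (0.999, 0.998 and 0.997) were nearest to Pcx, and Dnajc7, Cdc14a and Chd4 (0.994, 0.989 and 0.989) to Slc37a4. Among the members themselves, r of Pck1 was between -0.639 and -0.109 with each of the other 4, whose 6 pairs had r of 0.687 to 0.919.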

How the data were processed

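Groups and replicate numbers were taken from the sample titles. Tools named in the submitters' processing notes are edgeR 3.16.5, STAR 2.5.2b and RSEM, with GRCm38/mm10. Their annotation, read filters and strand setting are not stated there. Per the file headers, the authors deposited RSEM expected counts per gene, unscaled between libraries, and TPM, which corrects for effective length and gives each library the same total.

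Expected counts were rounded, 23.5% of values above 0 not being whole. Symbols and 1-based coordinates came from GENCODE M21 (51633 of 51912 genes matched) and promoters from RefSeq (GRCm38.p6). The fit was edgeR 4.0.16 (R 4.3.3) with TMM, filterByExpr, glmQLFit (legacy on, robust off) and all 6 libraries, leaving 3 residual and 3.08 prior degrees of freedom, with a common biological coefficient of variation of 0.368. On counts simulated with the same dispersion for all genes, the check was of recovered fold changes, and not of p-values or calls in these data. The threshold was 0.05 on p-values adjusted by Benjamini-Hochberg over 13644 genes. The standard error is the absolute log2 fold change over the square root of F, and 95% intervals use the t distribution on the residual and prior degrees of freedom. Log2 CPM took a prior count of 2. Groups are apart where every library of one is above every library of the other. Members and lists were chosen with earlier results of these data known. Named genes were the 5 members, per list and comparison any called gene and the 2 with the smallest p, and per member the 3 genes of highest r at a mean of 10 CPM or more. The last left out predicted genes and segments of T cell receptors and immunoglobulins. Some genes that these rules take are not reported here. Alternatives used DESeq2 1.42.0, limma 3.58.1, other scalings and filters, 2 groups only, and each library left out.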

Additional observations from a re-analysis of the deposited data

How the results depend on the processing

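No paired analysis was possible because the titles share only replicate number 3 between groups, and a block needs 2 shared numbers. With 2 libraries a group, their number limits the precision, and a library left out leaves its group with 1, assumed to vary like the others. Genes called numbered 2 in GF versus SPF, 2 in AF versus GF, 6 in AF versus SPF and 4 for any difference. In that order they numbered 484, 264, 804 and 937 with no low-count filter, where the prior degrees of freedom became infinite. The likelihood ratio test called 97, 53, 298 and 266. DESeq2 called 80, 51 and 269 in the 3 comparisons. With only the 2 groups compared they were 0, 8 and 2. Library totals gave 0 in GF versus SPF and 4 in AF versus GF. Scaling on brush border markers gave 5 in AF versus GF, 10 in AF versus SPF and 7 for any difference. limma on log2(TPM + 1) gave 5 in GF versus SPF and 9 in AF versus GF, and on log2(TPM + 0.1) 4 and 5. With 1 library left out the ranges were 0 to 369, 0 to 9, 0 to 625 and 0 to 136, with 369, 9 and 625 without SPF replicate 3. The cause of these differences was not tested beyond the prior degrees of freedom.

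Of 270 values for the members under alternatives, 241 kept direction and side of the threshold, 10 passed it and 19 reversed. Pck1 passed in GF versus SPF with no filter (1.83, adjusted p 2.03e-04) and with DESeq2 (1.83), and in AF versus GF with no filter (-2.24, 2.27e-06), DESeq2 (-2.22) and the likelihood ratio test (-2.22). With no filter G6pc (-1.63) and Fbp1 (-1.53) passed in GF versus SPF and Fbp1 (1.79) in AF versus GF. With 1 library left out, GF versus SPF ran from 1.35 to 2.56 for Pck1, -2.17 to -0.776 for G6pc, -2.11 to -0.587 for Fbp1, -1.18 to 0.283 for Pcx and -0.869 to 0.0185 for Slc37a4, the last 2 reversing without SPF replicate 4. AF versus GF ran from -2.59 to -1.94 for Pck1. AF versus SPF ran from -0.866 to 0.344 for Pck1, -1.16 to 0.235 for G6pc, -0.297 to 1.22 for Fbp1, -0.444 to 0.812 for Pcx and -0.345 to 0.542 for Slc37a4. Scaling on brush border markers reversed GF versus SPF for Pcx (0.151), Slc37a4 (0.143), Slc37a1 (0.173), Sdhc (0.00108) and Ppargc1b (0.00528), and AF versus SPF for Pck1 (0.282), G6pc (0.129), Slc37a3 (0.209), Pfkfb2 (0.191) and Sucla2 (0.123). Library totals reversed AF versus SPF for Pcx (-0.0606) and Slc37a4 (-0.0823), and limma on log2(TPM + 1) and log2(TPM + 0.1) reversed it for Pcx (-0.228, -0.235), Slc37a4 (-0.266, -0.272) and G6pc3 (-0.203, -0.222). Mut in AF versus GF ran from -0.858 to 0.0215. The cause was not tested. Of 756 values for the other named genes, 724 kept direction and side, 23 passed the threshold and 9 reversed.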
